A study of Rattus norvegicus with 19 samples.

Results

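The 10 genes described here encode regulators of mitochondrial biogenesis and of transcription through the peroxisome proliferator-activated receptors (PPARs): Ppargc1a, Ppargc1b, Esrra, Esrrg, Nrf1, Tfam, Ppara, Ppard, Pparg and Rxrg. They were chosen by name as regulators of this pathway and make up 10 of the 17455 gene symbols in the count files. All 10 were among the 12388 genes with enough counts to be tested.

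RNA was sequenced from the left ventricles of 19 Sprague-Dawley rats, all labelled male and 24 weeks old when the experiment began. Heart failure with preserved ejection fraction (HFpEF) was induced over 5 weeks with 0.5 g/L of the nitric oxide synthase inhibitor L-NAME in the drinking water and a diet with 60% of its kilocalories from lard. The groups asked what the disease, the passage of time and 2 drugs, alone or together, did to the heart. Control 5w (n = 3) and control 9w (n = 3) were healthy rats on standard chow without L-NAME, taken at weeks 5 and 9. The HFpEF group (n = 3) was taken at week 5, at the end of the induction. The groups named untreated (n = 3), EMPA (n = 2), PFD (n = 2) and EMPA + PFD (n = 3) had the same induction, then daily gavage for 4 weeks, and were taken at week 9. The study also speaks of 9 weeks of induction, so whether L-NAME and the diet went on during gavage is not clear. Untreated rats received only phosphate-buffered saline. EMPA rats received 0.35 g/kg of empagliflozin per day, an inhibitor of the sodium-glucose transporter of the kidney. PFD rats received 0.3 g/kg of pirfenidone per day, an antifibrotic drug, and the EMPA + PFD rats received both at these doses. The EMPA and PFD groups were each 1 library short because the study left out libraries with corrupted files.

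The heart draws most of its energy from fatty acids oxidised in mitochondria, and the capacity for this is set in part by transcription. The coactivators PGC-1α and PGC-1β, encoded by Ppargc1a and Ppargc1b, do not bind DNA themselves but raise the activity of factors that do, among them the estrogen-related receptors, nuclear respiratory factor 1 (NRF1) and the PPARs. These factors switch on nuclear genes for the citric acid cycle, the respiratory chain and fatty acid oxidation, and TFAM carries the program into the mitochondrion by packaging and transcribing mitochondrial DNA.

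The libraries held between 7430539 and 13017754 counts. Levels are given in CPM, counts scaled to a common library size, after normalisation by the trimmed mean of M values. Gene lengths were not used, so levels are compared between libraries and not between genes. Differences are log2 fold changes with a standard error (SE) from 1 model of all 7 groups, tested with edgeR's quasi-likelihood F test. Adjusted p is the Benjamini-Hochberg value over the 12388 tested genes, and a gene is said to have passed when its adjusted p was under 0.05.

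Some libraries went against their labels or stood apart. Counts of the Y-linked gene Eif2s3y ranged from 613 to 1321 in 12 libraries. There were 0 counts in HFpEF libraries 1 and 3, in all 3 untreated libraries and in both PFD libraries, although these rats are labelled male, and counts under the symbol Ddx3 were 0 in the same 7 libraries. The study's groups held both sexes in equal number, while its methods give the sequenced left ventricles as those of males. The few counts of Ddx3y did not follow the split, at 6 to 17 in these 7 libraries and 1 to 23 in the other 12, and Usp9y was at 0 in all 19. The comparisons of EMPA and of EMPA + PFD with untreated, and of untreated with control 9w, therefore set libraries with Eif2s3y counts against libraries without them, and the split and the treatment or disease cannot be told apart there. In the comparisons of EMPA + PFD with control 9w and of control 9w with control 5w, every library had these counts.

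Atrial genes were also unevenly present in this ventricular tissue. The summed level of 5 of 5 listed atrial markers (Myl4, Myl7, Sln, Bmp10 and Nppa, the last the most abundant in 18 libraries and Myl7 in 1) was 3284, 6124 and 4649 CPM in control 5w, 2086, 272 and 1968 CPM in HFpEF, and 5197, 188 and 23340 CPM in control 9w. In the gavage groups it was 48, 14872 and 484 CPM in untreated, 698 and 5172 CPM in EMPA, 2983 and 62.6 CPM in PFD, and 86.4, 381 and 153 CPM in EMPA + PFD. Control 9w library 3 and untreated library 2 thus stood above all others, and none of these markers was at 0.

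Of 10 listed cardiomyocyte markers 9 were in the files and none was at 0. The most abundant was Myh6 in 10 libraries, Myh7 in 5, Actc1 in 3 and Tnnt2 in 1. Their summed level was 89238, 44389 and 48656 CPM in control 5w, 14202, 21760 and 38245 CPM in HFpEF, and 37557, 43677 and 38939 CPM in control 9w. It was 67040, 18180 and 60903 CPM in untreated, 51172 and 41948 CPM in EMPA, 69333 and 71689 CPM in PFD, and 80975, 96506 and 76195 CPM in EMPA + PFD. Every HFpEF library was below every control 5w library, untreated library 2 was far below the other untreated libraries, and control 5w library 1 was high for its group. The 6 fibroblast markers (most abundant Dcn in 11 libraries, Col3a1 in 7 and Col1a1 in 1) summed to 4430 CPM in control 5w library 1 against 40846 and 32902 CPM in libraries 2 and 3 of that group, and to 15997, 9471 and 11806 CPM in HFpEF. In the week 9 libraries this sum lay between 1995 and 8073 CPM. In bulk tissue, fewer cells of a type and less RNA per cell cannot be told apart.

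Ppargc1a, whose product PGC-1α is the best-known coactivator of mitochondrial biogenesis, stood at 45.4, 26.5 and 30.7 CPM in control 5w and at 6.03, 9.08 and 12.3 CPM in HFpEF. At week 9 it stood at 23.2, 21.3 and 25.5 CPM in control 9w and at 25.5, 10.4 and 17.7 CPM in untreated. It reached 21.4 and 17.4 CPM in EMPA, 28.9 and 27.8 CPM in PFD, and 36.1, 94.0 and 90.3 CPM in EMPA + PFD. All HFpEF libraries lay below all control 5w libraries, and all EMPA + PFD libraries lay above all other week 9 libraries, with libraries 2 and 3 far above library 1. The group means ran from 9.14 ± 3.15 (SD) in HFpEF through untreated (17.9 ± 7.57), EMPA (19.4 ± 2.88), control 9w (23.3 ± 2.13), PFD (28.3 ± 0.81) and control 5w (34.2 ± 9.94) to 73.4 ± 32.4 CPM in EMPA + PFD. Along this order each group overlapped the next, except that control 9w lay wholly below PFD.

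The fitted change of Ppargc1a in HFpEF against control 5w was -1.91 ± 0.38 (SE) in log2, a 3.75-fold lower level, with an adjusted p of 0.00523. EMPA + PFD against untreated gave 2.04 ± 0.37, a 4.12-fold higher level (adjusted p 0.00883). Against control 9w, EMPA + PFD was higher by 1.65 ± 0.37 (adjusted p 0.00431). Without EMPA + PFD library 2 the change against untreated was 1.84 (adjusted p 0.0476), and without untreated library 2 it was 1.76 (adjusted p 0.0458). Across 31 alternative settings this change ran from 1.76 to 2.39, with adjusted p between 1.03e-05 and 0.109.

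Ppargc1b, which encodes PGC-1β, stood at 43.4, 23.7 and 21.9 CPM in control 5w and at 8.11, 21.0 and 21.3 CPM in HFpEF. In the EMPA + PFD libraries it stood at 46.9, 50.2 and 51.0 CPM, against 31.9, 14.5 and 24.9 CPM in untreated. HFpEF libraries 2 and 3 came within 1 CPM of the lowest control, whereas every EMPA + PFD library was above every library of the other groups. Its change was -0.82 ± 0.35 in HFpEF against control 5w (adjusted p 0.106) and 1.06 ± 0.35 in EMPA + PFD against untreated (adjusted p 0.0579), so neither passed. From low to high its group means ran HFpEF (16.8 CPM), untreated, control 5w, EMPA, control 9w, PFD and EMPA + PFD (49.4 CPM), and among neighbours only PFD and EMPA + PFD did not overlap.

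**Figure D1:**
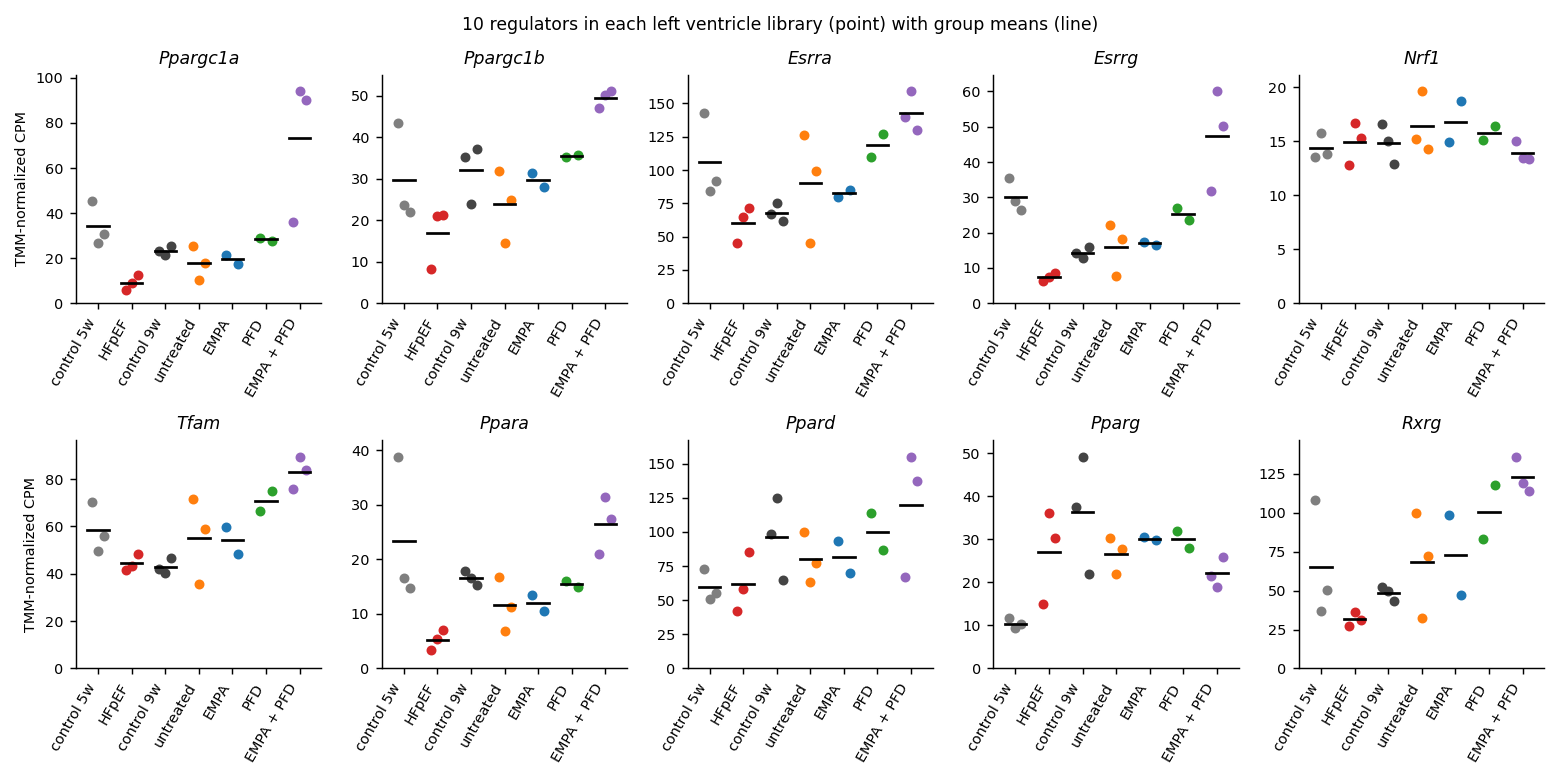
Level of each of the 10 regulators (CPM, vertical axis from 0) in every library (points) of the 7 groups, with the group mean as a line. Ppargc1a lay between 6.03 and 12.3 CPM in the HFpEF libraries and between 36.1 and 94.0 CPM in EMPA + PFD, while Pparg lay between 9.31 and 11.7 CPM in control 5w and at 14.9 CPM or more in every other library.

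The estrogen-related receptors are orphan nuclear receptors through which the PGC-1 coactivators reach genes of energy metabolism. Esrrg, encoding ERRγ, stood at 35.4, 28.9 and 26.3 CPM in control 5w, 6.17, 7.52 and 8.57 CPM in HFpEF, and 14.1, 12.8 and 15.9 CPM in control 9w. In untreated it stood at 22.2, 7.63 and 18.2 CPM, in EMPA at 17.4 and 16.6 CPM, in PFD at 26.9 and 23.5 CPM, and in EMPA + PFD at 31.9, 60.0 and 50.2 CPM. The 3 groups without gavage were wholly apart, with control 5w on top and HFpEF at the bottom, and untreated library 2 was as low as the HFpEF libraries. The group means ran from 7.42 ± 1.20 (SD) in HFpEF through control 9w (14.2 ± 1.54), untreated (16.0 ± 7.51), EMPA (17.0 ± 0.57), PFD (25.2 ± 2.47) and control 5w (30.2 ± 4.71) to 47.4 ± 14.3 CPM in EMPA + PFD. HFpEF did not overlap control 9w, EMPA did not overlap PFD, and the remaining neighbours overlapped.

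For Esrrg the change in HFpEF against control 5w was -2.03 ± 0.31, a 4.07-fold lower level (adjusted p 0.00127). Healthy rats also differed with time, by -1.08 ± 0.30 in control 9w against control 5w (adjusted p 0.0133). That call was lost without control 9w library 2, at -1.01 with an adjusted p of 0.0561, the highest over its alternatives, which began at 1.97e-05. EMPA + PFD was higher than untreated by 1.57 ± 0.30 (adjusted p 0.0107) and higher than control 9w by 1.73 ± 0.30 (adjusted p 0.00136). Without EMPA + PFD library 2 the change against untreated was 1.38 (adjusted p 0.0568), within a range of 5.56e-05 to 0.14 over all settings.

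Esrra, encoding ERRα, was at 143, 83.9 and 91.7 CPM in control 5w and at 44.9, 64.6 and 71.5 CPM in HFpEF. It was at 66.8, 74.9 and 61.4 CPM in control 9w, at 126, 44.9 and 99.3 CPM in untreated, and at 140, 159 and 130 CPM in EMPA + PFD. EMPA + PFD lay wholly above control 9w and untreated, and untreated library 2 was the lowest library of week 9. The change in EMPA + PFD against control 9w was 1.08 ± 0.29, a 2.11-fold higher level (adjusted p 0.0126), while against untreated it was 0.67 ± 0.29 (adjusted p 0.128). HFpEF against control 5w gave -0.81 ± 0.29 (adjusted p 0.0618), and without untreated library 2 the same change had an adjusted p of 0.0114. In order of group means, HFpEF (60.3 CPM) and control 9w (67.7 CPM) came lowest, followed without overlap by EMPA (82.7 CPM), then untreated, control 5w and PFD, and without overlap by EMPA + PFD (143 CPM).

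Nrf1 and Tfam stand further along the same pathway. Nrf1, a factor that binds promoters of respiratory chain genes, kept between 12.8 and 19.6 CPM in all 19 libraries, and its group means ran only from 13.9 CPM in EMPA + PFD to 16.8 CPM in EMPA, each group overlapping the next. Its changes in the 8 comparisons between groups ran from -0.24 in EMPA + PFD against untreated (adjusted p 0.29) to 0.15 in untreated against control 9w. Tfam stood at 70.3, 49.7 and 56.0 CPM in control 5w, 41.5, 43.4 and 48.2 CPM in HFpEF, and 41.8, 40.5 and 46.8 CPM in control 9w. In untreated it stood at 71.4, 35.5 and 58.9 CPM and in EMPA + PFD at 75.7, 89.4 and 83.9 CPM. The EMPA + PFD libraries were above all others, and control 9w (43.0 ± 3.31 CPM) had the lowest mean, overlapping HFpEF. EMPA, untreated, control 5w and PFD followed in that order, each overlapping its neighbour, and only PFD and EMPA + PFD did not overlap. EMPA + PFD exceeded control 9w in Tfam by 0.95 ± 0.20, a 1.93-fold higher level (adjusted p 0.0034), and exceeded untreated by 0.59 ± 0.20 (adjusted p 0.0631). Without untreated library 1 the latter change was 0.82 (adjusted p 0.0181), and without control 5w library 1 it was 0.61 (adjusted p 0.0404).

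Ppara encodes PPARα, the fatty acid sensor that switches on oxidation genes in heart and liver. It stood at 38.8, 16.5 and 14.8 CPM in control 5w and at 3.30, 5.32 and 6.97 CPM in HFpEF. In control 9w it was at 17.9, 16.6 and 15.3 CPM, in untreated at 16.7, 6.82 and 11.2 CPM, in EMPA at 13.5 and 10.6 CPM, in PFD at 16.1 and 14.9 CPM, and in EMPA + PFD at 20.9, 31.4 and 27.3 CPM. Control 5w library 1 was far above the other libraries of its group, and all HFpEF libraries lay below all controls. EMPA + PFD lay above every other library of week 9. The means ran from HFpEF (5.20 ± 1.84 SD) through untreated (11.6 ± 4.94), EMPA (12.0 ± 2.04), PFD (15.5 ± 0.84), control 9w (16.6 ± 1.34) and control 5w (23.4 ± 13.4) to EMPA + PFD (26.5 ± 5.29 CPM). Only EMPA and PFD did not overlap among neighbours.

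The change of Ppara in HFpEF against control 5w was -2.17 ± 0.39, a 4.51-fold lower level (adjusted p 0.00283). Without control 5w library 1 it was -1.59 (adjusted p 0.00935), within 2.05e-06 to 0.0545 over all settings. In EMPA + PFD against untreated the change was 1.21 ± 0.37 with an adjusted p of 0.047, close to the limit. This call held without EMPA + PFD library 1, HFpEF library 1, control 5w library 1 or 3, or untreated library 1. It was lost when any of the remaining libraries was left out, with adjusted p from 0.0502 without HFpEF library 3 to 0.193 without untreated library 2, and 0.164 without EMPA + PFD library 2.

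Ppard, encoding the widely expressed PPARδ, varied within groups as much as between them: it ran from 41.8 CPM in HFpEF library 1 to 155 CPM in EMPA + PFD library 2. Its lowest group mean was 59.5 CPM in control 5w and its highest 120 CPM in EMPA + PFD, with HFpEF, untreated, EMPA, control 9w and PFD between them and each neighbour overlapping. No comparison of Ppard passed with edgeR, and its largest change was 0.69 ± 0.33 in control 9w against control 5w (adjusted p 0.117). Limma's voom with sample weights put that change at 0.83 (adjusted p 0.000275), in a comparison where voom passed 70.7% of all tested genes.

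Pparg encodes PPARγ, the receptor best known as the regulator of fat cell formation and also present in endothelial cells and macrophages. It stood at 11.7, 9.31 and 10.3 CPM in control 5w, at 14.9, 36.1 and 30.4 CPM in HFpEF, and at 37.6, 49.2 and 22.0 CPM in control 9w. In untreated it was at 30.3, 21.9 and 27.8 CPM, in EMPA at 30.6 and 29.8 CPM, in PFD at 31.9 and 28.1 CPM, and in EMPA + PFD at 21.5, 18.9 and 26.0 CPM. The control 5w libraries were below all 16 others, and HFpEF library 1 was the next lowest. The means ran from control 5w (10.4 ± 1.19 SD) through EMPA + PFD (22.1 ± 3.60), untreated (26.7 ± 4.30), HFpEF (27.1 ± 11.0), PFD (30.0 ± 2.68) and EMPA (30.2 ± 0.62) to control 9w (36.3 ± 13.6 CPM), and every pair of neighbours except the lowest overlapped. HFpEF exceeded control 5w by 1.37 ± 0.30, a 2.59-fold higher level (adjusted p 0.00826), and control 9w exceeded control 5w by 1.79 ± 0.30, a 3.47-fold higher level (adjusted p 0.000801). These 2 comparisons share the control 5w libraries. Against control 9w, EMPA + PFD was lower by -0.71 ± 0.29 (adjusted p 0.0756).

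Markers of fat and vessel cells were set beside Pparg. Of 9 listed adipocyte markers 8 were in the files and 5 were tested. Fabp4, which endothelial cells also express, was the most abundant, and Adipoq, Plin1, Cidec, Lep and Retn were each at 0 in some libraries. The adipocyte sum was 1030, 620 and 708 CPM in control 5w, 847, 3389 and 2304 CPM in HFpEF, and 2951, 4071 and 1539 CPM in control 9w. It was 1933, 1563 and 2224 CPM in untreated, 2963 and 1993 CPM in EMPA, 2462 and 2017 CPM in PFD, and 1387, 1533 and 1611 CPM in EMPA + PFD. HFpEF library 1 and control 9w library 3, the lowest in Pparg of their groups, were also the lowest in this sum. Relative to the adipocyte sum of the same library, the mean log2 level of Pparg differed by 0.00 between HFpEF and control 5w and by -0.06 between control 9w and control 5w, and in both cases the ratios overlapped. Fabp4 made up most of that sum in every library (932 of 1030 CPM in control 5w library 1), so the ratio is close to one of Pparg to Fabp4. Among all tested genes Fabp4 was also the nearest to Pparg (Pearson's r 0.955). The ratio therefore cannot tell a change in cell number from one in level per cell. Against control 5w, 2 of the 5 tested adipocyte markers passed as higher in HFpEF (median change 1.92) and 2 in control 9w (median 1.87), in both cases Fabp4 and Lipe. Of the others, Cfd changed by 1.14 in HFpEF and by -0.82 in control 9w, where it was below every control 5w library (adjusted p 0.0961 and 0.2). Adipoq changed by 3.7 in HFpEF and by 3.69 in control 9w, with overlap in both (adjusted p 0.182 and 0.157).

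The 6 endothelial markers (most abundant Vwf in 10 libraries and Kdr in 7, none at 0) summed to 1556, 1348 and 1545 CPM in control 5w, 1493, 3043 and 2502 CPM in HFpEF, and 3331, 3322 and 2900 CPM in control 9w. In week 9 disease groups the sum was 2630, 3008 and 2828 CPM in untreated, 2654 and 2032 CPM in EMPA, 2176 and 2304 CPM in PFD, and 1834, 1619 and 1720 CPM in EMPA + PFD. Control 5w and HFpEF library 1 were at the bottom here as in Pparg, and EMPA + PFD lay below the other week 9 groups, without overlap. Of these markers 3 passed as higher in HFpEF and 5 in control 9w, both against control 5w, and 5 passed as lower in EMPA + PFD against control 9w. The part of these cells in the Pparg result was not tested.

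**Figure D2:**
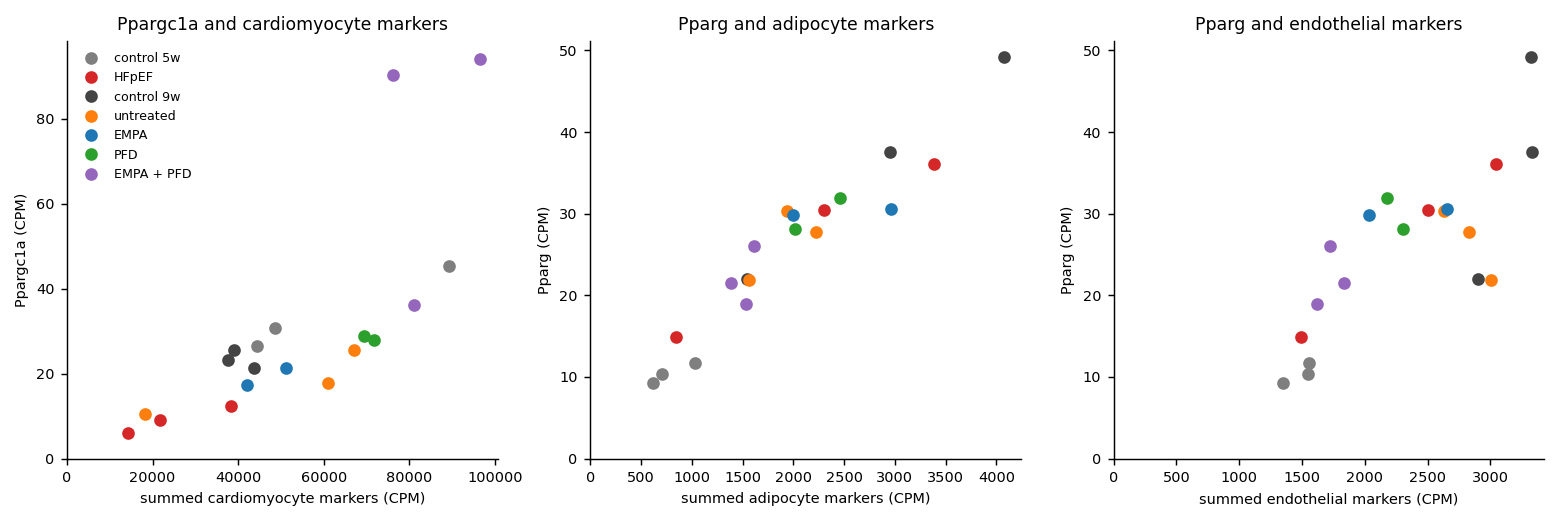
Ppargc1a against the summed cardiomyocyte markers, and Pparg against the summed adipocyte and endothelial markers (all axes in CPM from 0), with 1 point for each library coloured by group. EMPA + PFD libraries 2 and 3, at 94.0 and 90.3 CPM of Ppargc1a, lie above the other libraries, and the control 5w libraries lie at the lower left for Pparg.

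Rxrg encodes RXRγ, a retinoid X receptor, the class of partner that PPARs need to bind DNA. It stood at 108, 36.9 and 50.3 CPM in control 5w, 27.5, 36.1 and 30.9 CPM in HFpEF, and 52.3, 49.9 and 43.6 CPM in control 9w. In untreated it was at 99.8, 32.2 and 72.4 CPM, in EMPA at 98.4 and 47.2 CPM, in PFD at 83.1 and 118 CPM, and in EMPA + PFD at 136, 119 and 114 CPM. Control 5w library 1 was again high, untreated library 2 was low, and the EMPA + PFD libraries overlapped PFD alone. From HFpEF (31.5 CPM) the means rose without overlap to control 9w (48.6 CPM), then with overlap at each step through control 5w, untreated, EMPA and PFD to EMPA + PFD (123 CPM). EMPA + PFD exceeded control 9w by 1.34 ± 0.40, a 2.53-fold higher level (adjusted p 0.0201). That call was lost without any of the control 9w libraries, with adjusted p of 0.0508, 0.0589 and 0.0589, the highest over its alternatives, which began at 0.00041.

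Across the 10 regulators, 1 passed as higher (Pparg) and 3 as lower (Ppargc1a, Esrrg and Ppara) in HFpEF against control 5w, where 9.83% and 10.2% of all tested genes passed as higher and lower. The median change of the 10 was -0.82, against 0.022 over all tested genes. Without untreated library 2, which is in neither group, 7 of 10 passed, with Esrra, Tfam and Rxrg added as lower. The share of all tested genes that passed rose to 25.3% in that setting, and the cause was not tested. Of the HFpEF libraries only library 2 had Eif2s3y counts like the controls. In it Ppargc1a, Esrrg and Ppara were below all control 5w libraries too. This is 1 library, and the part of the split in these changes was not tested.

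In control 9w against control 5w, the question being time in healthy rats, 1 regulator passed as higher (Pparg) and 1 as lower (Esrrg), where 17.3% and 17.2% of all tested genes passed in these directions. The median was -0.43 against -0.038 for all genes. Without untreated library 2 there were 4, with Esrra at -0.65 (adjusted p 0.022) and Tfam at -0.44 (adjusted p 0.0212) added, where 38.4% of all genes passed, and without control 9w library 2 only Pparg was left, where 20.9% did. At an unadjusted p under 0.05 there were 4 of 10 against 45.4% of all genes. The settings put the adjusted p of Pparg here between 1.33e-07 and 0.00791.

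In untreated against control 9w, the disease effect at week 9, 0 of 10 passed with edgeR, where 1.78% of all tested genes did, and 0 had an unadjusted p under 0.05, against 18.2% of all genes. DESeq2 also gave 0, where 6.65% of all genes passed, and voom gave 4 (Esrra, Tfam and Rxrg higher, Ppara lower), no more than its share of 40.4% over all genes. The changes ran from -0.53 for Ppara to 0.49 for Rxrg, with a median of -0.06 against 0.005 for all genes. Without untreated library 2, Tfam passed at 0.60 (adjusted p 0.0308), where 8.22% of all genes passed.

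In untreated against HFpEF, the course of the disease from week 5 to week 9, 0 of 10 passed with edgeR, where 0.226% of all genes did, although 4 had an unadjusted p under 0.05 (22.7% of all genes) and 9 of 10 changes were positive, with a median of 0.54 against -0.013 for all genes. DESeq2 passed 2 (Esrrg and Ppara) and 7.79% of all genes, and voom passed 5 and 27.8%. The largest changes were 1.15 ± 0.38 for Ppara (adjusted p 0.12), 1.11 for Rxrg (adjusted p 0.143) and 1.10 ± 0.31 for Esrrg (adjusted p 0.0884). Among the single libraries left out in turn only untreated library 2 changed this count: without it 14.5% of all genes passed and 6 regulators, namely Esrra, Esrrg, Ppara, Ppargc1a, Rxrg and Tfam, with Esrrg at 1.45 (adjusted p 0.00806). The share of all genes also rose without HFpEF library 2 (3.24%) and without control 5w library 1 (3.1%), with 0 regulators passing.

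The difference between the disease effects of the 2 weeks was tested directly, as the change in untreated against control 9w minus that in HFpEF against control 5w. It was positive and passed for 3 regulators and negative and passed for 1, where 9.76% and 10.2% of all tested genes passed in these directions. The median of the 10 values was 0.99 against -0.02 for all genes. Esrrg gave 2.19 ± 0.43 (adjusted p 0.00498), Ppara 1.64 ± 0.53 (adjusted p 0.0411) and Esrra 1.23 ± 0.41 (adjusted p 0.0491). Pparg gave -1.82 ± 0.42 (adjusted p 0.00994). The disease effect on Esrrg was thus -2.03 at week 5 and 0.16 at week 9, and that on Pparg was 1.37 and -0.44. The change of the healthy controls is part of this difference. Pparg changed by -0.02 in untreated against HFpEF (adjusted p 0.968) and by 1.79 in control 9w against control 5w. Esrrg changed by 1.1 and by -1.08 in these comparisons. In the difference itself Ppargc1a, at 1.51 ± 0.52 (adjusted p 0.0523), did not pass. An unadjusted p under 0.05 was found for 7 of the 10 and for 35.3% of all genes. The calls of Esrra and Ppara lie close to the limit, and over 31 settings they passed in 9 and 15. Without control 5w library 1 their values were 0.94 (adjusted p 0.12) and 1.06 (adjusted p 0.104), and 2 regulators and 16.7% of all genes passed. Without untreated library 1 they were 0.90 (adjusted p 0.149) and 1.28 (adjusted p 0.128), where 10.7% of all genes passed. Without untreated library 2 they were 1.55 (adjusted p 0.00236) and 1.92 (adjusted p 0.0124), with 7 regulators and 29.9% of all genes passing. Only Esrrg and Pparg passed when the library left out was control 5w library 1, HFpEF library 1 or 2, untreated library 1 or 3, any control 9w library, either PFD library or EMPA + PFD library 3.

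Markers moved in this difference too. Of the cardiomyocyte markers 2 of 9 passed as positive, Actc1 at 2.65 and Ryr2 at 1.48, with a median of 1.62, above the 0.99 of the regulators. Of the tested adipocyte markers 2 of 5 passed as negative, Fabp4 at -2.07 and Lipe at -2.15, with a median of -2.07, beside -1.82 for Pparg. One of the 6 endothelial markers, Pecam1, passed as negative at -1.26 (median -0.91). No atrial, fibroblast, macrophage and leukocyte, smooth muscle or skeletal muscle marker passed with edgeR, with medians of 0.57, 1.35, -0.07, -0.91 and -0.10. The part of these markers in the difference was not tested.

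**Figure D3:**
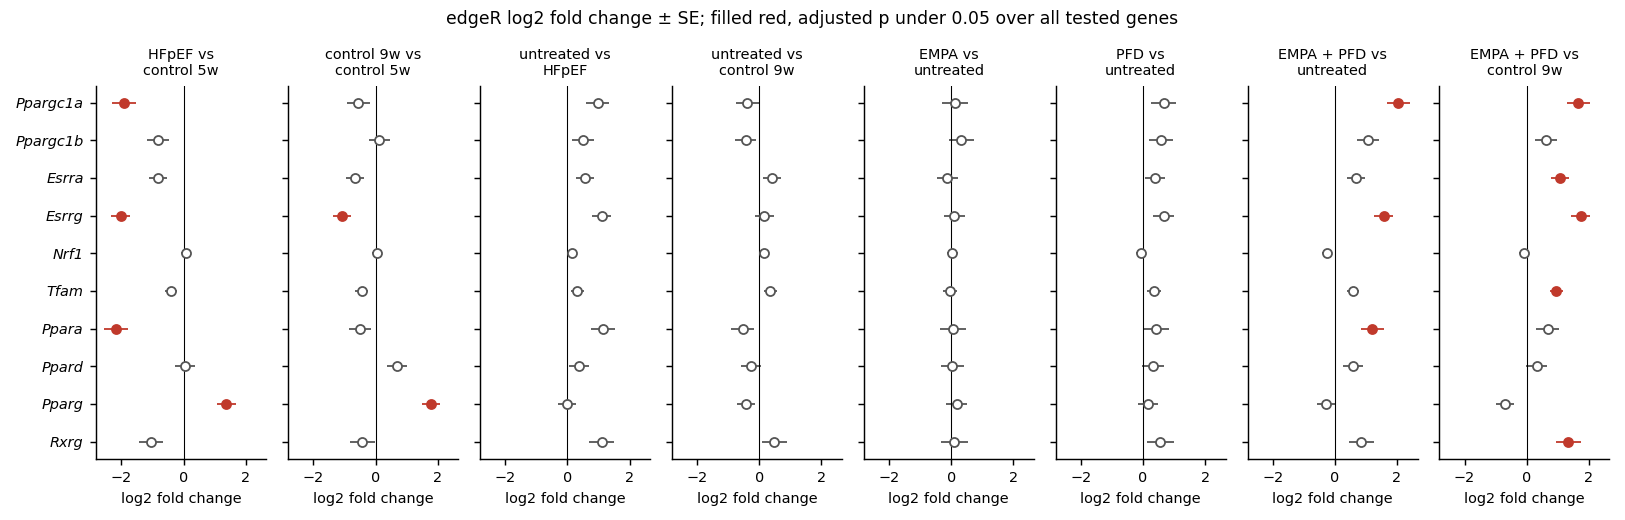
Log2 fold change (horizontal axis) with its SE for the 10 regulators in 8 comparisons between groups, filled red where the adjusted p was under 0.05. Ppargc1a, Esrrg and Ppara lie at -1.91, -2.03 and -2.17 in HFpEF against control 5w and at 2.04, 1.57 and 1.21 in EMPA + PFD against untreated, whereas 0 regulators passed in EMPA or PFD against untreated.

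The drugs were compared with the untreated rats, whose 3 libraries are shared by these comparisons. With EMPA alone 0 of 10 regulators passed with edgeR, where 0.0404% of all genes did. No regulator had an unadjusted p under 0.05, against 8.63% of all genes, and DESeq2 and voom also gave 0, where they passed 0.767% and 0.396%. Both EMPA libraries had Eif2s3y counts and no untreated library did, so drug and split cannot be told apart here either. The changes lay between -0.12 for Esrra and 0.33 for Ppargc1b, with a median of 0.08 against 0.007 for all genes. PFD alone gave 0 of 10 too, where 0.00807% of all genes passed, with 0 at an unadjusted p under 0.05 (5.21% of all genes) and 0 by DESeq2 and voom (0.0404% by each). Its changes were positive for 9 of 10, with a median of 0.41 against -0.017. The largest were 0.67 ± 0.40 for Ppargc1a, 0.66 ± 0.33 for Esrrg and 0.58 ± 0.38 for Ppargc1b, each with an adjusted p of 0.786, and in these genes both PFD libraries were above all 3 untreated libraries. The mean log2 of the summed cardiomyocyte markers was itself higher in PFD by 0.75, and relative to it these 3 genes differed by 0.01, 0.04 and -0.09, with overlap. All of these libraries lacked Eif2s3y counts.

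In EMPA + PFD against untreated 3 of 10 regulators passed as higher (Ppargc1a, Esrrg and Ppara) and 0 as lower, where 6.6% and 5.52% of all genes did. DESeq2 and voom each passed 5 as higher, adding Ppargc1b and Tfam, and 0 as lower, where in both directions together they passed 20.4% and 30.0% of all genes. With edgeR, 7 of the 10 and 32.7% of all genes had an unadjusted p under 0.05, and the median change was 0.76 against -0.032 for all genes. Leaving out a library gave between 1 and 6 passing regulators. Without EMPA + PFD library 2 only Ppargc1a was left, where 0.888% of all genes passed in either direction, and without EMPA + PFD library 3, untreated library 2 or untreated library 3 there were Ppargc1a and Esrrg, where 2.53%, 1.13% and 3.37% did. Without untreated library 1 there were 6, with Ppargc1b at 1.33 (adjusted p 0.0337), Tfam at 0.82 (adjusted p 0.0181) and Esrra at 0.99 (adjusted p 0.0382) added, and without control 5w library 1 there were 5, where 18.3% and 16.4% of all genes passed. With the presence of Eif2s3y counts as a covariate, which can be estimated only within the HFpEF group, the changes of Ppargc1a, Esrrg and Ppara were 2.05, 1.54 and 1.14 with adjusted p of 0.109, 0.14 and 0.369.

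Whether the combination exceeded the sum of the single drugs was tested as an interaction. Here 0 of 10 passed with edgeR, where 0.00807% of all genes did, and 1 (Ppargc1a, 1.25 ± 0.58, adjusted p 0.547) had an unadjusted p under 0.05, against 9.13% of all genes. DESeq2 and voom gave 0, where 0.436% and 0.88% of all genes passed. The median was 0.25 against -0.015 over all genes, and 8 of 10 values were positive.

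Against control 9w, a comparison that shares the EMPA + PFD libraries with the previous ones, 5 of 10 regulators passed as higher (Ppargc1a, Esrra, Esrrg, Tfam and Rxrg) and 0 as lower, where 17.1% and 16.6% of all tested genes passed in these directions. DESeq2 passed 5 as higher and 0 as lower and voom 7 and 1, where they passed 37.5% and 54.7% of all genes. With edgeR 6 of 10 had an unadjusted p under 0.05, against 44.4% of all genes. The median change was 0.81 against -0.078 for all genes. Side by side, the changes against untreated and against control 9w were 2.04 and 1.65 for Ppargc1a, 1.57 and 1.73 for Esrrg, 0.67 and 1.08 for Esrra, 0.59 and 0.95 for Tfam, and 1.21 and 0.68 for Ppara.

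The regulators were also taken relative to the summed cardiomyocyte markers of the same library, a scale chosen after the data were seen and given with no test. The mean log2 of that sum itself differed by -1.34 between HFpEF and control 5w, by 1.00 between EMPA + PFD and untreated and by 1.07 between EMPA + PFD and control 9w. In HFpEF against control 5w the ratio was lower by -0.58 for Ppargc1a and -0.75 for Ppara, without overlap, and by -0.68 for Esrrg, with overlap. On this scale Tfam, Nrf1, Ppard, Ppargc1b and Pparg were higher in every HFpEF library, by 0.95, 1.39, 1.35, 0.46 and 2.63, while Esrra and Rxrg differed by 0.54 and 0.44 with overlap. In EMPA + PFD against untreated the ratios of Nrf1 and Pparg were lower by -1.23 and -1.27, without overlap. The others overlapped there, at 1.01 for Ppargc1a, 0.65 for Esrrg, 0.27 for Ppara, 0.13 for Ppargc1b, -0.01 for Rxrg, -0.21 for Esrra, -0.36 for Tfam and -0.49 for Ppard. Against control 9w the ratio was lower without overlap for Ppara (-0.41), whose fitted change was 0.68, and for Nrf1 (-1.16) and Pparg (-1.72). It overlapped for Esrrg (0.62), Ppargc1a (0.46), Rxrg (0.27), Esrra (0.01), Tfam (-0.13), Ppargc1b (-0.43) and Ppard (-0.79). In untreated against HFpEF, where the sum was higher by 0.88, all 10 ratios overlapped, at 0.24 for Ppara, 0.10 for Esrrg, 0.09 for Rxrg and 0.05 for Ppargc1a, with the other 6 negative, down to -0.83 for Pparg. In PFD against untreated all 10 overlapped between -0.79 for Nrf1 and 0.04 for Esrrg, and in EMPA against untreated between -0.14 for Esrra and 0.25 for Ppargc1b, where the sum differed by 0.14. In untreated against control 9w, where it differed by 0.07, Ppara was lower without overlap (-0.69) and the other 9 overlapped. In control 9w against control 5w, with the sum lower by -0.53, the ratios of Ppargc1b (0.69), Ppard (1.18) and Pparg (2.26) were higher without overlap, and that of Esrrg (-0.55) overlapped like the other 6. Of the cardiomyocyte markers themselves 2 of 9 passed as lower in HFpEF against control 5w (median -1.24), 1 passed as higher in EMPA + PFD against untreated (median 0.83) and 3 against control 9w (median 1.31). Their part in the results was not tested.

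The remaining marker lists varied as follows. The 9 macrophage and leukocyte markers (most abundant Csf1r and Mrc1 in 6 libraries each, Ptprc in 5 and C1qa in 2) summed to between 212 and 1470 CPM. The 5 smooth muscle markers (Smtn in 14, Myh11 in 3, Acta2 and Tagln in 1 each) summed to between 422 and 2209 CPM, and the 6 skeletal muscle markers (Tnnt3 in all 19), of which 4 were tested, to between 20.4 and 102 CPM. In control 9w against control 5w, 5 of 9 macrophage and leukocyte markers and 5 of 6 fibroblast markers passed as lower, as did 1 of 9 cardiomyocyte markers, Actc1 at -1.66 (median of the 9 -0.60). There 2 of 5 atrial markers, Bmp10 and Sln, passed as higher (median 4.59), as did 1 smooth muscle marker (Myh11, 1.33) and 1 skeletal muscle marker (Tnni2, 2.22), and the part of these markers was not tested. In HFpEF against control 5w only 1 marker of the macrophage and leukocyte, fibroblast, smooth muscle and skeletal muscle lists passed, a skeletal muscle gene that was higher, and in EMPA + PFD against untreated none did. Of the 5 atrial markers, 2 passed as lower in EMPA + PFD against untreated and 4 against control 9w.

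Partners and co-regulators of the 10 genes formed a list of 25, of which 23 were measured. In HFpEF against control 5w 2 passed as higher (8.7%, where 9.83% of all tested genes did) and 6 as lower (26.1%, where 10.2% did), with a median of -0.30. In EMPA + PFD against untreated 5 passed as higher (21.7% against 6.6%) and 0 as lower (5.52% of all), with a median of 0.19. Prkaa2, the AMP-activated kinase subunit that acts on PGC-1α, stood at 66.8, 47.9 and 50.1 CPM in control 5w, 6.32, 6.05 and 9.02 CPM in HFpEF and 17.5, 11.6 and 17.2 CPM in control 9w. In the gavage groups it stood at 27.6, 5.44 and 14.1 CPM in untreated, 14.4 and 13 CPM in EMPA, 34.7 and 29.8 CPM in PFD, and 48.6, 88.5 and 81.8 CPM in EMPA + PFD. HFpEF and the healthy control 9w both lay wholly below control 5w, untreated overlapped control 9w, and EMPA + PFD lay wholly above both. Its change was -2.95 ± 0.43 in HFpEF against control 5w (adjusted p 0.000944), -1.83 ± 0.40 in control 9w against control 5w (adjusted p 0.00385) and 2.22 ± 0.41 in EMPA + PFD against untreated (adjusted p 0.00915). Esrrb, the third estrogen-related receptor gene, stood at 12.2, 5.20 and 7.08 CPM in control 5w, 0.431, 1.38 and 1.16 CPM in HFpEF, 2.26, 2.09 and 2.19 CPM in control 9w, 3.80, 1.14 and 3.79 CPM in untreated and 7.92, 15.2 and 11.8 CPM in EMPA + PFD. Control 9w was again wholly below control 5w, and below untreated libraries 1 and 3. In these comparisons, taken in the same order as for Prkaa2, it changed by -3.05 ± 0.50 (adjusted p 0.00178), -1.89 ± 0.47 (adjusted p 0.00719) and 2.01 ± 0.46 (adjusted p 0.0183). Ncoa2, a nuclear receptor coactivator, changed by -0.63 ± 0.12 in HFpEF against control 5w (adjusted p 0.00411) and by 0.53 ± 0.12 in EMPA + PFD against untreated (adjusted p 0.018). The healthy control 9w (24.9, 22.5 and 25.8 CPM) also lay wholly below control 5w (32.5, 36.2 and 33.9 CPM) in Ncoa2. Nrip1, a corepressor of nuclear receptors, was higher in HFpEF by 0.63 ± 0.14 (adjusted p 0.0106), and Lpin1, a coactivator of PPARα, was higher in EMPA + PFD than in untreated by 1.72 ± 0.37 (adjusted p 0.015). Lpin1 stood at 71.8, 174 and 214 CPM in EMPA + PFD and at 62.2, 37.8 and 39.9 CPM in untreated. In PFD it stood at 95.3 and 55.3 CPM, which overlapped EMPA + PFD. Against control 9w, EMPA + PFD had 8 that passed as higher (34.8% against 17.1% of all genes) and 3 as lower (13% against 16.6%), and in control 9w against control 5w 6 passed in each direction (26.1% against 17.3% and 17.2%).

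The list of 15 genes for maintenance and transcription of mitochondrial DNA was measured in full. In HFpEF against control 5w 1 passed as higher (Top1mt, a mitochondrial topoisomerase, 0.69 ± 0.19, adjusted p 0.0195) and 1 as lower (Tefm, an elongation factor, -1.10 ± 0.33, adjusted p 0.0308), with a median of -0.22. Each is 6.67% of the list, below the 9.83% and 10.2% of all genes. In Tefm the healthy control 9w (16.2, 11.8 and 14.3 CPM) also lay wholly below control 5w (37.0, 18.2 and 21.2 CPM). It overlapped HFpEF (9.19, 12.1 and 14.5 CPM). In EMPA + PFD against untreated only Mterf4, a termination factor family member, passed (0.76 ± 0.23, adjusted p 0.0432), with a median of 0.24, while Mterf2 (0.88, adjusted p 0.0583), the helicase gene Twnk (0.60, adjusted p 0.0632) and the nuclease gene Mgme1 (0.63, adjusted p 0.0832) did not. That 1 gene is 6.67% of the list, against 6.6% of all genes passing as higher. Between EMPA + PFD and control 9w 7 of 15 passed as higher (46.7% against 17.1% of all genes) and 0 as lower, with a median of 0.49. Transcripts encoded by mitochondrial DNA itself were not analysed here.

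Of 26 listed targets of PPARα and PPARδ, all were measured. They did not move as 1 block in HFpEF against control 5w: 3 passed as higher (11.5% against 9.83% of all genes) and 2 as lower (7.69% against 10.2%), with a median of -0.30. Angptl4, which encodes a secreted inhibitor of lipoprotein lipase, stood at 1.22, 1.32 and 0.955 CPM in control 5w, at 71.3, 23.7 and 49.8 CPM in HFpEF and at 9.93, 11.8 and 7.98 CPM in control 9w. It stood at 12.4, 19.2 and 19.8 CPM in untreated, 54.5 and 61.6 CPM in EMPA, 66.2 and 29.1 CPM in PFD and 65.2, 59.2 and 77.2 CPM in EMPA + PFD. All libraries of HFpEF and of the groups given a drug were thus above all untreated libraries and all controls. Its change was 5.36 ± 0.44 in HFpEF against control 5w, a 41.1-fold higher level (adjusted p 5.04e-05), in the same comparison in which Ppara was 4.51-fold lower.

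Cpt1a, which admits long-chain fatty acids to mitochondria, stood at 88.8, 60.1 and 62.5 CPM in control 5w, 109, 97.9 and 114 CPM in HFpEF and 144, 137 and 140 CPM in control 9w. In the gavage groups it stood at 103, 79.2 and 90.1 CPM in untreated, 117 and 121 CPM in EMPA, 142 and 127 CPM in PFD, and 132, 195 and 199 CPM in EMPA + PFD. The healthy control 9w lay above every HFpEF and untreated library and overlapped EMPA + PFD, HFpEF lay wholly above control 5w, and EMPA + PFD wholly above untreated. Its changes were 0.60 ± 0.17 in HFpEF against control 5w (adjusted p 0.0233), 1.00 ± 0.17 in control 9w against control 5w (adjusted p 0.000839), 0.32 ± 0.17 in EMPA + PFD against control 9w (adjusted p 0.15) and 0.95 ± 0.17 in EMPA + PFD against untreated (adjusted p 0.00834). In that last comparison 8 of 26 passed as higher (30.8% against 6.6% of all genes) and 0 as lower, all 26 changes were positive, and the median was 1.19 against -0.032 for all genes. Angptl4 was higher there by 1.97 ± 0.35 (adjusted p 0.00834). Against control 9w 21 of 26 passed as higher (80.8% against 17.1%), with a median of 1.72. The cardiomyocyte markers had medians of 0.83 against untreated and 1.31 against control 9w, and their part was not tested.

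Of 30 listed targets of the estrogen-related receptors and NRF1, 27 were measured. The list was drawn up for the citric acid cycle and the respiratory chain but also holds Mfn2, a gene of mitochondrial fusion. In HFpEF against control 5w 0 passed as higher and 8 as lower with edgeR (29.6% against 10.2% of all genes), 13 had an unadjusted p under 0.05 (48.1% against 35.8%), none of the 27 changes was positive, and the median was -0.94, beside -1.24 for the 9 cardiomyocyte markers. Ogdh, a subunit of 2-oxoglutarate dehydrogenase, stood at 631, 309 and 358 CPM in control 5w, 90.9, 85.3 and 135 CPM in HFpEF, 88.1, 116 and 99.9 CPM in control 9w, 305, 101 and 206 CPM in untreated and 520, 786 and 683 CPM in EMPA + PFD. Cs, the citrate synthase gene, stood at 980, 549 and 590 CPM, 139, 135 and 220 CPM, 169, 172 and 188 CPM, 598, 120 and 380 CPM, and 799, 1270 and 1150 CPM in the same groups. In both genes HFpEF lay wholly below control 5w and EMPA + PFD wholly above untreated. The healthy control 9w was as low as HFpEF in both, as was untreated library 2, while untreated libraries 1 and 3 were above control 9w. Ogdh changed by -2.06 ± 0.35 in HFpEF against control 5w (adjusted p 0.00224), -2.09 ± 0.35 in control 9w against control 5w (adjusted p 0.000787) and 1.70 ± 0.35 in EMPA + PFD against untreated (adjusted p 0.0127). Cs changed by -2.10 ± 0.42 (adjusted p 0.00545), -2.00 ± 0.42 (adjusted p 0.00281) and 1.55 ± 0.41 (adjusted p 0.0296) in these comparisons. In HFpEF Sdha, of respiratory complex II, was lower by -1.57 ± 0.36 (adjusted p 0.0104) and Ndufs1, of complex I, by -2.14 ± 0.50 (adjusted p 0.0106), and in control 9w against control 5w they were lower by -1.29 and -1.98 (adjusted p 0.013 and 0.00738). In EMPA + PFD against untreated 3 of 27 passed as higher (11.1% against 6.6% of all genes) and 0 as lower. An unadjusted p under 0.05 was found for 8 of 27 (29.6% against 32.7% of all genes). All 27 changes were positive, and the median was 0.74, beside 0.83 for the cardiomyocyte markers. The third to pass was the mitofusin gene Mfn2, at 1.19 ± 0.33 (adjusted p 0.0349), and Uqcrc2, of complex III, was at 1.13 ± 0.39 (adjusted p 0.0671). Against control 9w 15 of 27 passed as higher (55.6% against 17.1%), with a median of 1.23, beside 1.31 for those markers, whose part in these lists was not tested.

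**Figure D4:**
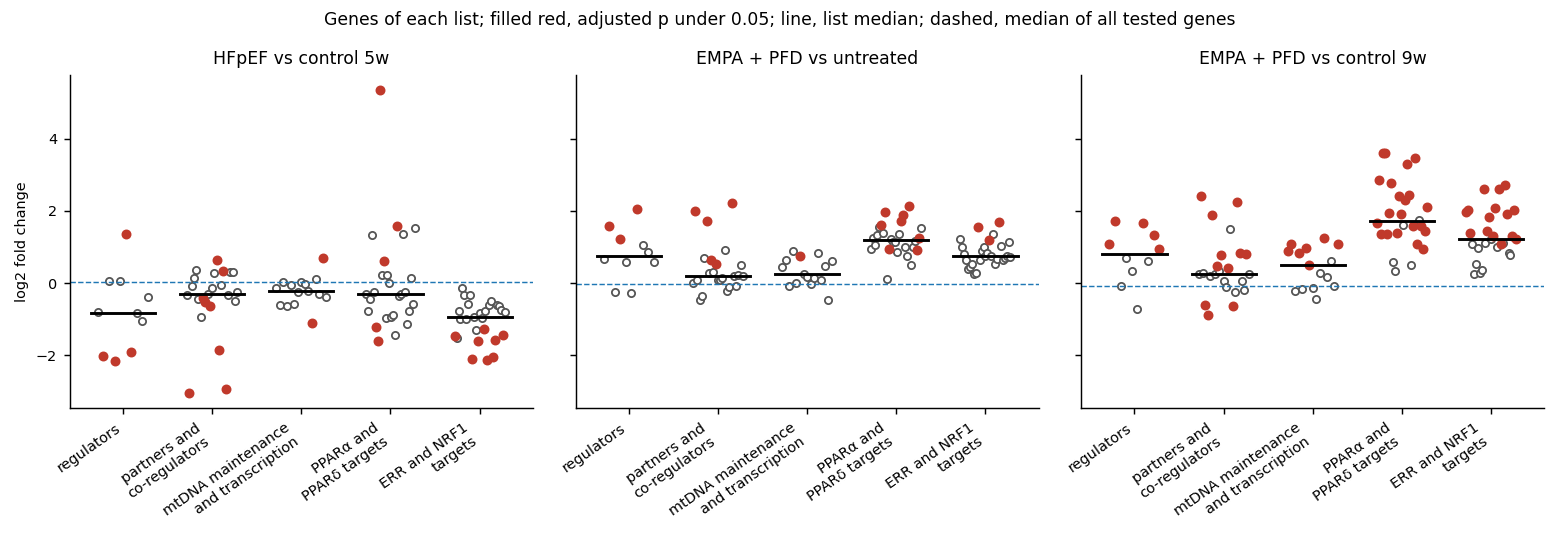
Log2 fold change of every measured gene (points) of the 10 regulators and 4 lists around them in 3 comparisons, filled red where the adjusted p was under 0.05, with list medians as black lines and the median of all tested genes dashed. The targets of the estrogen-related receptors and NRF1 have a median of -0.94 in HFpEF against control 5w and of 0.74 in EMPA + PFD against untreated.

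In the comparisons where no regulator passed, 0 genes of these 4 lists passed with edgeR either. At an unadjusted p under 0.05 there were 5 partners (21.7%), 2 mitochondrial DNA genes (13.3%), 9 PPAR targets (34.6%) and 7 targets of the estrogen-related receptors and NRF1 (25.9%) in untreated against control 9w, where 18.2% of all genes had such a p. In the same order there were 7 (30.4%), 1 (6.67%), 16 (61.5%) and 16 (59.3%) in untreated against HFpEF, where 22.7% of all genes did. The counts were 1, 0, 1 and 0 in EMPA against untreated (8.63% of all genes), 1, 0, 3 and 0 in PFD against untreated (5.21%), and 8, 2, 2 and 1 in the interaction of the drugs (9.13%). Several of these shares lie near or below those of all genes. Others lie above them, such as 34.8% of the partners in the interaction and the 61.5% and 59.3% in untreated against HFpEF. The lists were not counted by other tools. In PFD against untreated, all 26 PPAR targets and all 27 targets of the estrogen-related receptors and NRF1 had positive changes, with medians of 0.56 and 0.52, beside a median of 0.53 for the 9 cardiomyocyte markers, whose part was not tested, while in EMPA against untreated 18 and 7 did, with medians of 0.19 and -0.08. Between the disease effects of weeks 9 and 5, 9 of the 27 passed as positive (33.3% against 9.76% of all genes). The median of the 27 was 1.40, beside 1.62 for the cardiomyocyte markers, whose part was not tested. Of the 26 PPAR targets 1 passed as positive (Hadhb, 3.85% of the list). Angptl4 and Cpt1a passed as negative (7.69%, where 10.2% of all genes did). Of the partners 4 passed as positive (17.4%) and 3 as negative (13% against 10.2% of all genes) there, and of the mitochondrial DNA genes 3 passed as positive (20.0%) and 0 as negative.

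With time in healthy rats, in control 9w against control 5w, 17.3% of all genes passed as higher, 17.2% passed as lower and 45.4% had an unadjusted p under 0.05. Of the 27 targets of the estrogen-related receptors and NRF1 7 passed as lower (25.9%) and 0 as higher, with a median of -0.48, and 9 had an unadjusted p under 0.05 (33.3%). Of the PPAR targets 4 passed as higher (15.4%) and 2 as lower (7.69%), with a median of 0.05. Of the mitochondrial DNA genes 1 passed in each direction (6.67%), Polrmt as higher and Polg as lower. The shares of the last 2 lists are below those of all genes.

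The regulators varied together to different degrees over the 19 libraries, which share the 7 groups and so are not independent points. Pearson's r of log2 CPM was 0.96 between Ppargc1a and Esrrg, 0.94 between Esrra and Tfam, and 0.93 between Ppargc1a and Ppara, but -0.40 between Ppargc1a and Nrf1 and -0.18 between Ppargc1a and Pparg. Among all tested genes the closest to Ppargc1a were Fgf1 (r 0.972), Scrn3 (0.968) and Atpaf1 (0.961). For Ppargc1b they were Paqr9 (0.95), Ppp1r3d (0.936) and Wnk2 (0.933). Esrra was nearest Fhl2 (0.982), Coq9 (0.982) and Dlst (0.979), and Esrrg nearest Usp13 (0.988), Fgf1 (0.982) and Sptb (0.978). Tfam came closest to Hadh (0.991), Hadhb (0.984) and Sucla2 (0.982), and Ppara to Wnk2 (0.961), Sat2 (0.958) and Zc2hc1c (0.943). Ppard was nearest Chd7 (0.90), Lnx1 (0.897) and Dgat2 (0.889), and Rxrg nearest Magix (0.961), Nudt12 (0.948) and Spag7 (0.947). The adipocyte marker Fabp4 (0.955), Kank3 (0.946) and C1qtnf9 (0.942) were the nearest to Pparg. Nrf1 had no gene as close, with Fut2 (0.738), Znrd1as1 (0.707) and Cdc42bpg (0.70) at the top. Without untreated library 2 Cdc42bpg fell to rank 58 for Nrf1 (r 0.578), Nudt12 and Spag7 to ranks 12 and 11 for Rxrg, and Ppp1r3d to rank 7 for Ppargc1b, while the others stayed among the nearest 5. By Spearman's rho over the 19 libraries the genes named here ranked between 1 and 57.

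Because several regulators moved together, their promoters were searched for short motifs of the pathway. RefSeq promoter windows on the GRCr8 build, from 250 bases before to 50 bases after the gene start, were matched for 9 of the 10 genes, with 13 windows in all (4 for Esrrg and 2 for Pparg), and Ppard was not matched. Both strands were searched. The cAMP response element TGACGTCA was in 1 of the 13 windows, that of Ppargc1a, and in 1.83% of all 33469 windows. The NRF1 element GCGCANGCG was in 2 of 13, those of Esrra and Ppara, and in 5.8% of all. The estrogen-related receptor element TCAAGGTCA (0.433% of all windows), the GABP element CCGGAAGTG (1.89%) and the PPAR element AGGTCANAGGTCA, a direct repeat (0.0538%), were in 0 of 13. A match describes the letters only and is no evidence of binding. The 3 windows with a match are shown with the motif in capitals: Ppargc1a on the + strand of chr14:63634058-63634357, Ppara on the + strand of chr7:118712357-118712656, where matches on both strands overlap, and Esrra on the - strand of chr1:213543256-213543555.

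Ppargc1a: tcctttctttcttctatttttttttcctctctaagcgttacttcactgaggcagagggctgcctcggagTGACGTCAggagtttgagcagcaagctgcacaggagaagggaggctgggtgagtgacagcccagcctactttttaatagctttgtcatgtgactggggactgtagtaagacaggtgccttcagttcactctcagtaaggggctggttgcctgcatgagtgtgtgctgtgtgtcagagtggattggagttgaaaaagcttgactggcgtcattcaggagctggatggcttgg

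Ppara: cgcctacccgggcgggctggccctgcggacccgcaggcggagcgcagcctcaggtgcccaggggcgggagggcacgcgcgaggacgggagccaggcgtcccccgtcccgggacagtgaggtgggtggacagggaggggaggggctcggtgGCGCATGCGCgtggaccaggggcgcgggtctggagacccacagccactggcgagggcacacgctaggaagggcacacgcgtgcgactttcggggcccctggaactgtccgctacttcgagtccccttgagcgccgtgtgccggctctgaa

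Esrra: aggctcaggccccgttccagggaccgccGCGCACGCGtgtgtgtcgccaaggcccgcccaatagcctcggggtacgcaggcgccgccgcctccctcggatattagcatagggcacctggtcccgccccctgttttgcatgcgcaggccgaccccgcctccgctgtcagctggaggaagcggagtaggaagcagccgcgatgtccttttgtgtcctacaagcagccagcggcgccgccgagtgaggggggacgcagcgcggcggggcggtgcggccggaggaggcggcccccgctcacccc

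In the GRCr8 gene table Esrra overlaps Trmt112, Ppara overlaps Cdpf1, and Ppargc1b holds the microRNA genes Mir378 and Mir3557, all of which are in the count files. Ppargc1a overlaps a pseudogene, and Esrrg and Ppard overlap long noncoding genes, none of them in the files. Nrf1, Tfam, Pparg and Rxrg overlap none. The strand mode of the counting is not given in the sources used here, so reads from the overlapping stretches cannot be told apart.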

How the data were processed

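Whole counts per gene symbol were deposited for each library. Per the labels and the study's methods, the authors trimmed reads with Trim Galore, checked them with FastQC, aligned them with HISAT2 to rn6 and counted them with htseq-count; versions, strand mode and annotation were not given in the sources used here. The table of the whole series repeats these counts and was left aside.

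From these counts, genes were kept by edgeR's filterByExpr with the 7 groups, leaving 12388 of 17455. Libraries were normalised by the trimmed mean of M values, and 1 quasi-likelihood model of 7 groups and 19 libraries was fitted (edgeR 4.0.16, R 4.3.3), with a biological coefficient of variation of 0.257. SE is the absolute log2 fold change over the square root of F. Adjusted p is Benjamini-Hochberg over all tested genes. Log2 CPM used a prior count of 2. DESeq2 1.42.0 and limma 3.58.1 (voom with sample quality weights) served as alternatives, and the fit was tested on simulated data. Depth was 7430539 to 13017754 counts per library.

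The members and lists were chosen with earlier results of these data known. Named genes were the 4 of each list with the smallest adjusted p in HFpEF against control 5w and in EMPA + PFD against untreated, and the 3 genes with the highest r for each regulator; Hadhb and genes named to complete a count were chosen after their values were seen. Values of 2 genes that this rule names are not reported here. Alternatives covered normalisation, filter, tool, samples in the fit, a fold threshold, a replicate block, a Y-linked covariate and each library left out.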

Additional observations from a re-analysis of the deposited data

Results flagged for a closer look

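The effect of the disease differed between weeks 5 and 9 in 4 regulators, and each was marked because the test of that difference itself passed (edgeR, adjusted p under 0.05 over all tested genes). Untreated against control 9w minus HFpEF against control 5w gave 2.19 for Esrrg, 1.64 for Ppara, 1.23 for Esrra and -1.82 for Pparg in log2. The adjusted p values were 0.00498, 0.0411, 0.0491 and 0.00994. Over the alternatives Esrrg and Pparg passed in 31 of 31, Ppara in 15 and Esrra in 9, and none of the 4 changed sign. The change of the healthy controls is part of this difference. Control 9w against control 5w gave -1.08 for Esrrg, -0.49 for Ppara, -0.65 for Esrra and 1.79 for Pparg. Untreated against HFpEF gave 1.1, 1.15, 0.58 and -0.02 in the same order. At week 9 all untreated libraries lacked Eif2s3y counts and all control 9w libraries had them, so the disease effect of that week and this split cannot be told apart. Cardiomyocyte markers moved in the same difference (2 of 9 passed as positive, median 1.62), as did adipocyte markers (2 of 5 passed as negative, median -2.07) and endothelial markers (1 of 6 as negative, median -0.91), and their part was not tested.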

How the results depend on the processing

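No regulator that passed changed direction in any of 31 alternatives. For HFpEF against control 5w, Esrrg passed in 31 (-2.14 to -1.74), and Ppargc1a (-2.18 to -1.41), Ppara (-2.44 to -1.34) and Pparg (1.11 to 1.79) in 30. Pparg in control 9w against control 5w passed in 31, as did Ppargc1a, Esrra and Esrrg in EMPA + PFD against control 9w. Tfam there passed in 30, failing only a fold of at least 2, and Rxrg in 28. In EMPA + PFD against untreated, Ppargc1a and Esrrg passed in 28 and Ppara in 12.

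Counts of passing regulators moved with some choices, and the cause was not tested. The percentage of all tested genes that passed in the same setting follows each count. With only the compared groups in the fit, which leaves fewer libraries, they were 2 (6.01%) in HFpEF against control 5w (4 in the report), 0 (0.0435%) in EMPA + PFD against untreated (3) and 2 (13.1%) in the difference between weeks (4). With the Eif2s3y covariate the latter 2 counts were 0 (3.99%) and 2 (15.3%). With the replicate number as a block the difference between weeks gave 2 (16.6%), and EMPA + PFD against untreated also gave 2 (8.84%). Deviations from the group means in libraries with the same number had a median r of -0.0666 (-0.532 to 0.493). For libraries with other numbers it was 0.0377 (-0.509 to 0.535). These ranges overlap, so whether the numbers pair rats cannot be settled from them.

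DESeq2 gave 2 (7.79%) in untreated against HFpEF, where the report has 0, and 5 (20.4%) in EMPA + PFD against untreated. Voom passed more genes overall: it gave 4 regulators (40.4% of all genes) in untreated against control 9w, 6 (70.7%) in control 9w against control 5w, 5 (27.8%) in untreated against HFpEF, 5 (30.0%) in EMPA + PFD against untreated and 8 (54.7%) in EMPA + PFD against control 9w. Of these, 4 and 6 of 10 are no more than the share of all genes.

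Leaving out 2 libraries together was chosen after the data were seen. Without both libraries high in atrial markers the counts were 7 (25.2%) in HFpEF against control 5w, 1 (7.79%) in untreated against control 9w, 5 (12.8%) in untreated against HFpEF, 1 (1.18%) in EMPA + PFD against untreated and 7 (29.5%) in the difference between weeks. Without control 5w library 1 and HFpEF library 1 they were 5 (18.7%) in EMPA + PFD against untreated, 8 (38.5%) in EMPA + PFD against control 9w and 2 (17.9%) in the difference between weeks.

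Leaving out each library in turn gave ranges of passing regulators, each followed by the range of the share of all tested genes. They were 4 to 7 (12.0% to 25.3%) in HFpEF against control 5w and 0 to 1 (0.0647% to 8.22%) in untreated against control 9w. In control 9w against control 5w they were 1 to 4 (20.9% to 38.4%), and in untreated against HFpEF 0 to 6 (0.0325% to 14.5%). EMPA + PFD gave 1 to 6 (0.888% to 18.3%) against untreated and 4 to 6 (20.0% to 37.0%) against control 9w. The difference between weeks gave 2 to 7 (10.7% to 29.9%). EMPA, PFD and the interaction gave 0 in every alternative. Without an EMPA or PFD library, the lone library left is assumed to vary like the other groups. Precision is limited by the 2 or 3 libraries of each group. The lowest level of any regulator was 3.30 CPM, for Ppara in HFpEF library 1, and its part in the precision was not tested.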
